A study of Drosophila melanogaster with 3 samples.

Results

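Where the protein encoded by CG12155 was found at the 10 genes of Polycomb repressive complex 2 (PRC2) and of the Pho recruiter was read from peak lists of chromatin immunoprecipitation followed by sequencing (ChIP-seq). The genes were listed by name: E(z), Su(z)12, esc, escl and Caf1-55 for the PRC2 core, Pcl and Jarid2 for PRC2 accessory proteins, and pho, phol and Sfmbt for the recruiter, out of 13945 protein-coding genes of the annotation. A peak was assigned to a gene when its summit lay in the gene or within 2 kb of it, which gave 11 of the 5202 optimal peaks. The embryos came from a transgenic Drosophila melanogaster line that stably carries CG12155 with eGFP at its C terminus. All 3 biological replicates form 1 group of mixed-sex whole embryos aged 0 to 24 hours, precipitated with an antibody against GFP, so the design holds no contrast between conditions. A whole embryo of this age range mixes cell types and stages, and a peak is an average over them. The replicates had relaxed lists of 30000, 29643 and 30000 regions, which mix peaks and background, the pool had 30000, and depth is unknown because the files hold no read counts. The optimal list, peaks that passed the irreproducible discovery rate, equals the 5202 strongest pooled regions, so a pooled rank of 5202 is its edge. Rank 1 is the strongest region of a list by the authors' signal. No control was analysed here, and the protein's role in the embryo was not measured.

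PRC2 is the complex that methylates lysine 27 of histone H3, the mark of genes kept silent by the Polycomb system. Fly PRC2 has a catalytic subunit, E(z), held by Su(z)12, by the WD40 protein Esc or its close relative Escl, and by the histone-binding WD40 protein Caf1-55 (also called p55 or Nurf55), which also serves other chromatin complexes. Pcl and Jarid2 join different forms of the complex and alter its targeting or activity. Pho is a zinc finger protein, related to mammalian YY1, that binds Polycomb response elements together with the MBT-domain protein Sfmbt, and Phol is its paralog. The data below concern binding at the genes that encode these proteins, not binding at their targets.

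The DNA at the summits of the genes' own starts (within 500 bp of a transcription start site, TSS) is shown first because 3 of the words described next can be read in it. Each sequence comes from RefSeq's Release 6 genome (dm6), reads 5′ to 3′ on the strand of the named gene, and is trimmed so that it holds at most 30 bases of annotated UTR. Capitals mark CAACACT, the Pho core GCCAT and CGATA (the core of the DNA replication-related element, DRE), each on either strand. The E(z) sequence covers the facing starts of E(z) and Cnep1r2, the gap between them and a few transcribed bases of each, at chr3L:10638116-10638160 on the minus strand, and the others hold their summit. They lie at chr3L:19923433-19923548 (minus) for Su(z)12, chr2L:11829376-11829550 (minus) for esc, chr3R:15225452-15225605 (plus) for Caf1-55 and chr3L:9476936-9477037 (plus) for Jarid2. Those of Sfmbt lie at chr2L:13176764-13176964 and chr2L:13176988-13177179 (minus), and that of phol, whose own start had a relaxed region and no optimal peak, at chr3L:9456252-9456317 (minus). The relaxed own-start windows of escl, Pcl and pho are not printed, and the trimmed stretches of escl and pho hold none of the 3 words.
E(z): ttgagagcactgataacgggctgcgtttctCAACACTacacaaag
Su(z)12: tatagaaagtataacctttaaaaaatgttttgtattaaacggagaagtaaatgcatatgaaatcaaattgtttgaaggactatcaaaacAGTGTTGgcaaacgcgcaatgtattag
esc: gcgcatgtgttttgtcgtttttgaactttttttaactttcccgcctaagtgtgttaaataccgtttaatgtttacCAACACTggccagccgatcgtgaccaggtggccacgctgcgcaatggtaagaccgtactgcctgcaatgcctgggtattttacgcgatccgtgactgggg
Caf1-55: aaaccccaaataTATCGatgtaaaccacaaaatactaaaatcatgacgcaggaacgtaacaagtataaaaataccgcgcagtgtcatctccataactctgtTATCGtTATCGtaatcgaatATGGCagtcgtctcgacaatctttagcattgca
Jarid2: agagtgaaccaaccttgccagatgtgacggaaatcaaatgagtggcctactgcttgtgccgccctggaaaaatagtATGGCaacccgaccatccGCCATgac
Sfmbt, first summit: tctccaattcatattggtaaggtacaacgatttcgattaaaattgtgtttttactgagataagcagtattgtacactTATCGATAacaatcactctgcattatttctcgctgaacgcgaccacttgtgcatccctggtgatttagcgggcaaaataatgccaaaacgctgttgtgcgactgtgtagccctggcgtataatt
Sfmbt, second summit: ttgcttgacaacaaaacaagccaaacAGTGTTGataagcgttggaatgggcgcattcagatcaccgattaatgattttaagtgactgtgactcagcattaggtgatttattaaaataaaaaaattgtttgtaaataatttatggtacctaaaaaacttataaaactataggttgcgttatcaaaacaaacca
phol: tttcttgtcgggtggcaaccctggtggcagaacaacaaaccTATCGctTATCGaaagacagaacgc

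CAACACT lay within 100 bp of 4 of the 7 optimal summits at own starts, those of E(z), Su(z)12, esc and the second of Sfmbt. It occurred in 7.34% of the windows of the same 201 bp around all optimal summits, in 2.35% of windows centred 500 bp to either side, and in 5.25% of windows around all protein-coding TSSs. The word was picked after it had been seen in these windows, so its count is a description with no test. Its centre lay 3 bp downstream of the E(z) TSS and 6 bp downstream of that of Su(z)12, on the coding strand at E(z) and on the other strand at Su(z)12. At esc it lay 67 bp upstream of the TSS and 22 bp from the summit. At the second Sfmbt summit it occurred at 2 places, 365 and 400 bp upstream of the Sfmbt TSS. The first of these is centred on the TSS of the neighbour CG5439 at 2L position 13177150, and the second lies outside the printed stretch. The window of the relaxed escl region held CAACACT as well, 49 bp upstream of the escl TSS, in a part not printed above. None of the 4 assigned summits beyond 500 bp of an own TSS had it.

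The Pho core GCCAT was present at 2 of the 7 own-start summits, those of Caf1-55 and Jarid2, against 26.1% of all optimal windows, 33.0% of flanks and 30.8% of TSS windows. Jarid2 carried it at 2 places of the printed stretch. Of the 4 relaxed own-start windows, 3 held GCCAT, those of escl, Pcl and phol, in parts not printed above. With 200 bp either side of the summit in place of 100 bp, 5 of the 7 optimal own-start summits held it. The shares of all windows were not taken at that width, so this count has no background beside it. CGATA was present at 2 of the 7, Caf1-55 and the first summit of Sfmbt, against 33.6% of optimal, 21.8% of flanking and 37.1% of TSS windows. The whole DRE, TATCGATA, lay at the first Sfmbt summit (5.25% of optimal, 0.615% of flanking and 6.45% of TSS windows) and includes CGATA on both strands. The GAGA word GAGAG was present at the summit of E(z) (23.1% of optimal and 26.2% of flanking windows), and Zeste's TGAGTG at that of Jarid2 (9.0% and 10.1%), and with 50 bp either side neither was present at any of the 7. The other listed words varied. GAAAA, listed for Dsp1, was at 1 of the 7, Jarid2, where 72.6% of optimal and 63.4% of flanking windows held it. The Combgap word GTGTGT was at 1, esc (12.5% of optimal windows), and the E-box CAGCTG was at none (9.25%). The TATA box TATAAA was at 3 of the 7 (34.7% of optimal windows), and the motif 6 core GGTATTTT was at 2, esc and Caf1-55 (3.36%). GGGCG was at 2 (14.7%), and the initiator word TCAGT was at 2 (33.5%). The core of motif 1, GGTCACACT, was at none of the 7 (2.67% of optimal windows). A pair of words picked from the windows of all optimal peaks, CGATAG and ACTCGC, was also at none (13.4% and 9.05% of optimal windows). Base composition ranged widely: G and C made up 31.3% of the window at E(z), 32.8% at Su(z)12, 45.8% at Jarid2 and 48.3% at esc, where all optimal windows had a median of 35.3% and their flanks 44.3%. A match of letters in these windows is not a shown binding site.

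Most of the 10 genes had an optimal summit nearby, and 6 had one at their own start. In the gene or within 2 kb, 8 of 10 had an optimal summit, where 41.1% of all protein-coding genes did; escl and pho had none. Within 500 bp of an own TSS, 6 of 10 had one, namely E(z), Su(z)12, esc, Caf1-55, Jarid2 and Sfmbt, where the share of all genes was 26.2%. The summits assigned to Pcl and phol lay within 500 bp of the starts of other genes and not of their own. By role, 4 of 5 core genes, 1 of 2 accessory genes and 1 of 3 recruiter genes had a summit at an own start. The genes were listed by name and are no sample of genes, so these shares are set beside the background without a test.

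**Figure D1:**
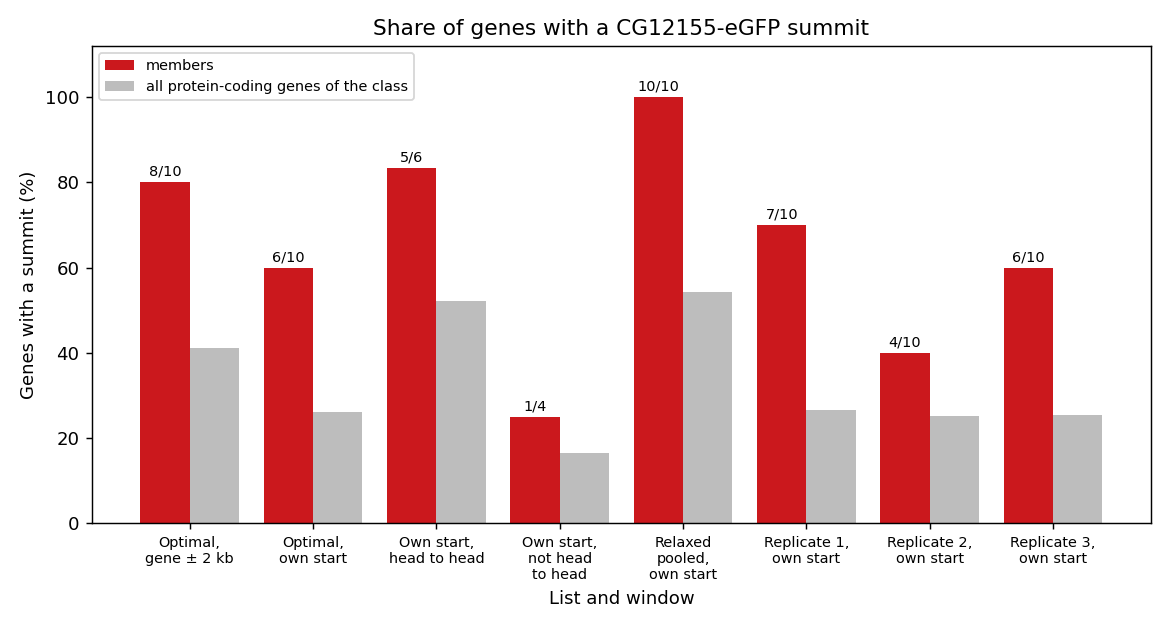
Percent of genes with a summit, for the 10 PRC2 and Pho recruiter genes (red, with the count above each bar) and for all protein-coding genes of the same class (grey), by list and window on the x axis; own start means within 500 bp of an own TSS, and the replicate bars use the 5202 strongest regions of that replicate. The members stand at 6 of 10 for optimal summits at own starts beside 26.2% of all genes, and between 4 and 7 of 10 in single replicates.

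The replicates differed in how many of the 10 they held. Among the 5202 strongest regions, replicate 1 had summits at the own starts of 7 members (26.5% of all genes), replicate 2 of 4 (25.1%) and replicate 3 of 6 (25.4%). That is a mean of 5.67 members ± 1.53 (SD, n = 3), while the share of all genes was 25.7% ± 0.737 (SD, n = 3). E(z), Su(z)12, esc and Sfmbt were in all 3 sets. Replicate 2 lacked Caf1-55 and Jarid2, and replicate 1 also held phol. With the relaxed pooled list, which includes background, all 10 had a summit at an own start, where 54.2% of all genes did, and their median rank was 3820.5 against 5515 over the 7560 genes that had such a region. Among genes with an optimal summit at an own start the order was the other way, with a median rank of 2562.5 over the 6 members and 2132 over all 3647 genes.

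The counts were also split by gene arrangement. Of the 10 genes, 6 face another protein-coding gene head to head, meaning that a start on the opposite strand lies at most 500 bp upstream. Among all 13945 protein-coding genes, 3815 do. Of the 6 members, 5 had an optimal summit at an own start, where 52.2% of all 3815 head-to-head genes did. The exception was phol. Of the other 4 genes, esc, escl, Pcl and pho, 1 had one, beside 16.4% of all genes that are not head to head. The part that facing genes have in the count was not tested. In each of the 6 bound genes at least 1 pooled summit was nearer to the gene's own TSS than to any other protein-coding TSS, as was so for 74.2% of the 3647 genes bound at a start. In single replicates the nearer start changed at 2 of them: at Caf1-55 in replicate 2, where the summit lay 103 bp from the CG31344 TSS and 144 bp from its own, and at Jarid2 in replicate 1, where it lay 23 bp from the Uch-L5 TSS and 50 bp from its own. At E(z) and Jarid2 the facing start lay inside the same peak, 54 and 66 bp from the pooled summit. Such distances do not assign a peak to 1 of the facing genes.

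**Figure D2:**
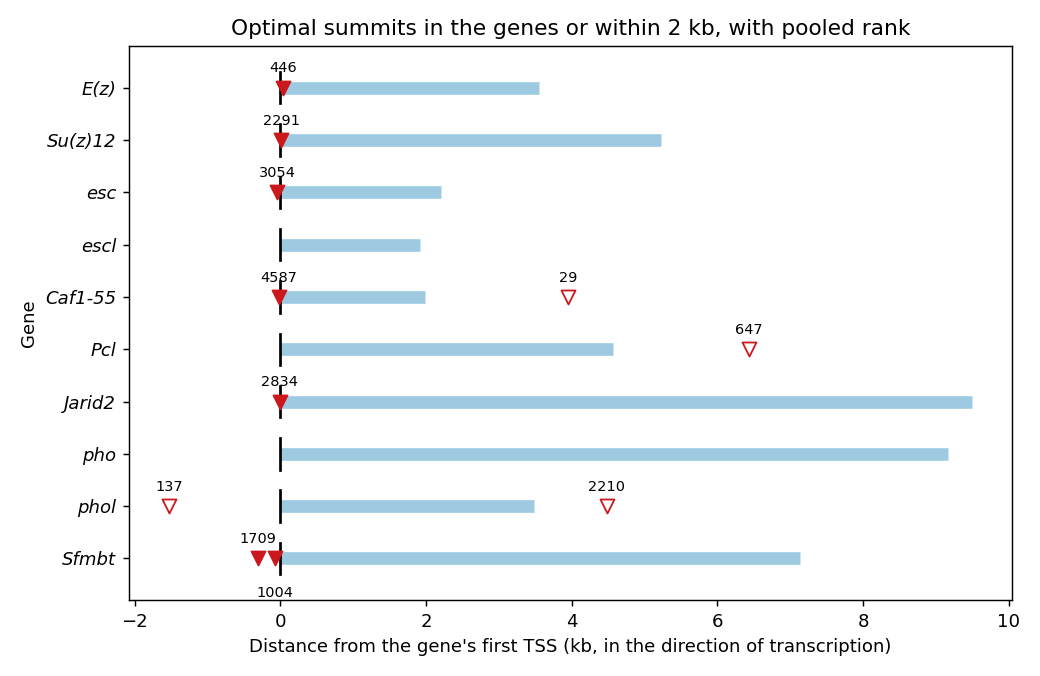
Optimal summits assigned to each gene (triangles) by distance in kb from the gene's first TSS (black tick), with the gene as a blue bar in the direction of transcription and the pooled rank as a number. Filled triangles lie within 500 bp of an own TSS, and open ones do not: those of Caf1-55 (rank 29), Pcl (647) and phol (137 and 2210) stand outside the gene.

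E(z), the gene of the catalytic subunit (FBgn0000629, chr3L:10634575-10638130, minus strand), had the strongest own-start peak of the 10. The peak, at chr3L:10637935-10638216, ranked 446 in the pool with a signal of 560.0, where the median of the optimal list was 199.3. Its ranks in replicates 1, 2 and 3 were 539, 474 and 366, a mean of 460 ± 87.4 (SD, n = 3). All 3 are well inside the optimal range, and 96.8% of all protein-coding genes had a weaker region or none at their start. The summit lay in the 5' UTR, 38 bp downstream of the first TSS, and in the replicates 56, 60 and 38 bp downstream. Cnep1r2, named for a regulatory subunit of a nuclear envelope phosphatase, starts 16 bp away on the other strand, 54 bp from the summit, so the peak covers both starts.

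Su(z)12 encodes the subunit that holds the catalytic core together (FBgn0020887, chr3L:19918242-19923462, minus strand). Its peak at chr3L:19923233-19923662 ranked 2291 in the pool with a signal of 216.5. Replicates 1, 2 and 3 ranked it 2602, 2088 and 1918, a mean of 2203 ± 356 (SD, n = 3), so that it was weaker than the E(z) peak in 3 of 3. No test was run on this order, which rests on 3 pairs. The summit lay 14 bp into the 5' UTR, and the facing gene Pfdn6, for a prefoldin subunit, starts 223 bp from it.

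The Esc paralogs differed in rank. The esc gene (FBgn0000588, chr2L:11827204-11829405, minus strand) had its summit in an intron of Pde1c, a phosphodiesterase gene. The nearest other protein-coding TSS, that of CG45011, was 4636 bp from the esc summit. Its peak, chr2L:11829235-11829664, ranked 3054 in the pool and 2670, 3519 and 2967 in replicates 1, 2 and 3, a mean of 3052 ± 431 (SD, n = 3). The summit was 45 bp upstream of the TSS, and in the replicates it lay 28, 54 and 54 bp upstream. The escl gene (FBgn0032391, chr2L:11990927-11992848, plus strand), 161521 bp further along the arm, had no optimal peak. Its own-start region ranked 14783 in the pool, 20112 in replicate 2 and 13206 in replicate 3, and replicate 1 listed none. In each replicate esc ranked ahead of escl, or escl was not listed, and their ranks did not overlap. The strongest pooled region within 2 kb of escl, at rank 9434, had its summit 1 bp from the start of zuc, which encodes the nuclease Zucchini of the piRNA pathway, and ranked 12948, 15860 and 14555 in the replicates.

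Caf1-55 (FBgn0263979, chr3R:15225576-15227564, plus strand) was the core gene with the weakest optimal peak at its start. That peak, chr3R:15225337-15225766, ranked 4587, near the edge of the optimal list. In replicates 1, 2 and 3 it ranked 3532, 10445 and 4464, a mean of 6147 ± 3751 (SD, n = 3). Replicate 2 stands apart, beyond its 5202 strongest regions. The summit lay 24 bp upstream of the Caf1-55 TSS and 223 bp from that of CG31344, which faces it over 247 bp. The second peak assigned to Caf1-55 by the 2 kb rule, chr3R:15229328-15229744, ranked 29, with 43, 23 and 20 in the replicates (mean 28.7 ± 12.5, SD, n = 3). It lay 1964 bp beyond the end of Caf1-55, between the facing starts of Art3, an arginine methyltransferase gene, and mRpS10, a mitochondrial ribosomal protein gene, at 120 and 137 bp. The Caf1-55 start itself is 3952 bp from this summit.

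**Figure D3:**
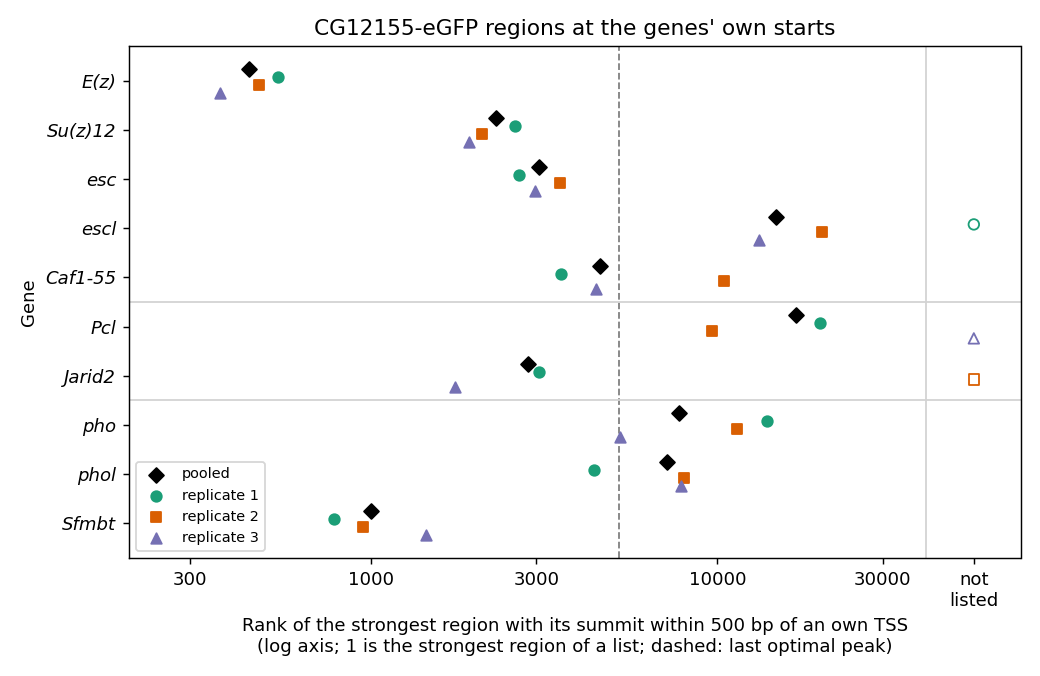
Rank of the strongest region with its summit within 500 bp of an own TSS (log axis, 1 is strongest) for each gene in the pooled list (black diamonds) and in replicates 1, 2 and 3; open symbols at the right mark lists with no such region, and the dashed line is rank 5202, the last optimal peak. E(z) and Sfmbt lie far left in every list, while escl, Pcl and Jarid2 are each missing from 1 replicate.

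Of the accessory genes, Jarid2 had its optimal peak over its own start and a facing start, and Pcl had its peak beyond the gene's end. Jarid2 (FBgn0036004, chr3L:9477038-9486530, plus strand) had an optimal peak at chr3L:9476816-9477245 with rank 2834 and a signal of 187.6. Its summit lay 7 bp upstream of the Jarid2 TSS and 66 bp from that of Uch-L5, which encodes a deubiquitinase of the proteasome and faces Jarid2 over 73 bp. Replicates 1 and 3 ranked the region 3062 and 1753, and replicate 2 listed no region there among its 29643. Over all optimal peaks, 18 (0.346%) had no region in the list of replicate 2, 11 (0.211%) in that of replicate 1 and 4 (0.0769%) in that of replicate 3. Of the 18, 5 ranked 2834 or better, Jarid2 among them.

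Pcl (FBgn0003044, chr2R:18135426-18139990, plus strand), whose protein is known for raising methylation by PRC2 at its targets, had a weak region at its start. That region ranked 16859 in the pool, 19778 in replicate 1 and 9621 in replicate 2, and replicate 3 listed none. The optimal peak assigned to Pcl, chr2R:18141752-18141980, had rank 647, with 929, 634 and 501 in the replicates (mean 688 ± 219, SD, n = 3). Its summit lay 1875 bp beyond the end of Pcl in an intron of pAbp, the gene of the poly(A)-binding protein, 490 bp from a pAbp TSS.

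Among the recruiter genes, Sfmbt had a stronger own-start region than pho and phol in every list, while the strongest peak within 2 kb was that of phol. Sfmbt (FBgn0032475, chr2L:13169649-13176785, minus strand) had a pair of neighbouring optimal peaks upstream of its first TSS. The first, chr2L:13176738-13176942, ranked 1004 in the pool and 785, 952 and 1439 in replicates 1, 2 and 3 (mean 1059 ± 340, SD, n = 3). Its summit lay 79 bp upstream of the TSS, inside a coding exon of CG43925, a gene on the other strand. The second, chr2L:13176873-13177302, ranked 1709, with 1578, 2332 and 1759 in the replicates (mean 1890 ± 394, SD, n = 3). Its summit lay 303 bp upstream of Sfmbt and 62 bp from the start of CG5439, which faces Sfmbt over 365 bp, and it was nearer to CG5439 in all 3 replicates. The first was the stronger in 3 of 3 replicates, and the intervals of both overlap, so they are not independent of each other.

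Neither pho nor phol had an optimal peak at its own start, and their order was not the same in every replicate. The pho gene (FBgn0002521, chr4:1172469-1181628, minus strand) had its strongest region at chr4:1181748-1182177, 335 bp upstream of the TSS, with pooled rank 7764. The best own-start ranks for pho were 13914, 11371 and 5240 in replicates 1, 2 and 3, and the last of these is just outside that replicate's 5202 strongest. For phol (FBgn0035997, chr3L:9452803-9456281, minus strand) the pooled rank was 7172, with the summit 9 bp downstream of the TSS, and the replicates gave 4392, 8006 and 7867. Thus phol was ahead of pho in replicates 1 and 2, and pho ahead in replicate 3.

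Both optimal peaks assigned to phol lay at other genes. The stronger, chr3L:9457636-9457982, ranked 137, with 195, 125 and 91 in the replicates (mean 137 ± 53.0, SD, n = 3). Its summit was 1531 bp upstream of phol in an intron of CG3552, 100 bp from a CG3552 TSS and 143 bp from that of CG3437. The weaker, chr3L:9451582-9452011, ranked 2210, with 2154, 1806 and 4933 in the replicates (mean 2964 ± 1714, SD, n = 3). It lay 1006 bp beyond the end of phol, 79 bp from the start of ghi and 225 bp from that of CG3448. The phol start, which faces another CG3552 TSS over 37 bp, lay between these peaks and outside the optimal list.

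Own-start counts were also taken for 5 related lists. Of 7 genes for Polycomb repressive complex 1, 5 had an optimal summit at an own start, led by ph-p (rank 40) and Psc (rank 233), whose pooled summits lay 483 and 118 bp from their TSSs. Of 8 genes for other factors that bind Polycomb response elements, 4 had one, led by cg (rank 252) and Trl (rank 480), which encodes GAGA factor. Of 4 genes for the demethylase Utx and for methyltransferases of the Trithorax group, 1 had one, namely trr (rank 3944), so that Utx, trx and ash1 had none. The methyltransferase gene ash1 had own-start regions in replicates 1 and 3 (ranks 4518 and 5697) and none in the pool. That of Utx ranked 5971 in the pool and 6358, 2980 and 7974 in replicates 1, 2 and 3. That of trx ranked 18023 in the pool and 19557, 17291 and 17829 in the replicates. Of 12 genes for other complexes that share Caf1-55, 5 had one, and mip120 (rank 3026) and mip130 (rank 3234) of the MuvB and dREAM complexes came first. Asx, of the Polycomb deubiquitinase, had one at rank 4896, and 1 of the 33 listed symbols matched no gene. The background for each of these counts is the 26.2% of all genes.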

How the data were processed

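The deposited lists come from 3 biological replicates, with chromatin sonicated to fragments of 200 to 800 bp, per the labels. The deposited notes name, on dm6, a relaxed list for each replicate alone, a relaxed list for the pool and an optimal list, and they give the relaxed lists as derived from the alignments and 1 further file, which they also give for the control-normalized signal. No source used here names the aligner, the peak caller or the thresholds. The signal of each region is the authors' own value as deposited. With no stated scale, and values that differ between lists, it served to rank regions within a list, and lists were compared by rank. The lists on dm3 were not used.

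Genes and 19252 TSS positions came from Ensembl release 115 on 6 chromosome arms, and DNA from RefSeq Release 6. A replicate's region matched a peak when it overlapped by 1 bp or more, taking the nearest summit. Support in a replicate meant an overlap with its 5202 strongest regions. Own-start ranks are the best rank of a summit within 500 bp of an own TSS. Words were searched on both strands in windows of 201 bp. Python 3.11.15, pandas 2.3.3 and numpy 2.4.6 were used, and placement and word search were tested on planted summits and words. No test across genes was run, since 1 group holds no contrast and the genes were listed by name. Errors are SDs over replicates, and with unknown depth no value could be weighted.

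All 10 listed genes were named, with genes whose starts share a summit and the leading 2 of each related list. Utx, trx and ash1, which had no optimal summit at an own start, were named in addition, and unbound genes of the other related lists were not. The members and lists were chosen with earlier results of these data known, and the words CGATAG and ACTCGC, with CAACACT as well, after the data were seen.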

Additional observations from a re-analysis of the deposited data

How the results depend on the processing

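The count of 8 genes with an optimal summit in the gene or within 2 kb rests on the distance: with the summit inside the gene it was 2 (13.0% of all genes), while it was 6 for 1000 bp (35.2%) and 9 for 5000 bp (54.3%). With the strongest 50% of optimal peaks, 3 genes had a summit at an own start (15.4% of all genes). In the other alternatives for these counts the values were within 1.5 times those reported, 6 to 9 for the gene window and 4 to 6 for own starts. The shares of all genes there ran from 23.9% to 54.3% and from 18.9% to 29.2%. Peaks supported by all 3 replicates gave 7 and 4 (32.9% and 20.1% of all genes). Support by both remaining replicates also gave 7 and 4 without replicate 1 (34.6% and 21.2%) or replicate 3 (34.9% and 21.6%). Without replicate 2 the counts were 8 and 6 (35.4% and 21.8%), since that replicate does not support the Caf1-55 and Jarid2 starts. Taking the median replicate rank or leaving out a replicate moved no gene's strongest rank beyond its SD over replicates. That SD comes from the same replicate ranks and the pooled rank was not recomputed, so this comparison could hardly show a move. For Caf1-55, Pcl and phol the strongest peak lay nearer to another gene's start. For Jarid2 only replicate 2, which does not list it, could be left out. Of 32 recounts of words in windows of 50 or 200 bp either side of the summit, 10 differed by more than 1.5 times, as fewer or more bases are searched: with 200 bp GCCAT was at 5 summits, and so were GAAAA and also TCAGT, while with 50 bp GAGAG was at 0, and so were TGAGTG and also GTGTGT. Shares of all windows were taken only for 100 bp either side, so these recounts have no background beside them. No paired analysis was possible because there is 1 group. Depth is unknown, so a region missing from a list may lie under that list's limit.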

Other observations

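The missing Jarid2 region of replicate 2 lay in a stretch of 18044 bp without any region of that list. Of the 26050 gaps between regions of replicate 2, 4.07% were at least as long, and the median gap was 1966 bp. A given site falls in a long gap more often than this share of gaps says. The next regions downstream of the Jarid2 peak lay 9068, 15914 and 18125 bp away in replicates 1, 2 and 3. The next regions upstream lay 1578, 1700 and 979 bp away. The Jarid2 and phol genes lie 20756 bp apart on the same arm, and the phol-side peak of rank 137 was listed by all 3 replicates.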
